A study of Papio anubis and Macaca fascicularis and Castor canadensis with 48 samples.

Results

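The acute phase plasma proteins are secreted by hepatocytes into the blood, and many of them change in amount when the liver receives inflammatory cytokines such as interleukin-6. Members of the group bind bacterial products, damaged cell surfaces, free haemoglobin or haem. Which member responds most strongly is known to depend on the species: C-reactive protein is the classical reactant in humans, whereas serum amyloid P component takes that role in mice. The 8 genes described here were chosen by name, as mouse Ensembl gene IDs: Lbp (ENSMUSG00000016024), Saa4 (ENSMUSG00000040017), Crp (ENSMUSG00000037942), Apcs (ENSMUSG00000026542), Hp (ENSMUSG00000031722), Hpx (ENSMUSG00000030895), Orm1 (ENSMUSG00000039196) and Itih4 (ENSMUSG00000021922). Of these, 7 have a row among the 16816 genes of the count table. Orm1, which encodes the plasma carrier orosomucoid, has no row in it and was not analysed here.

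The series, whose title concerns longevity, profiled RNA from 48 organ samples of 8 mammals. The liver libraries were 6 of baboon, 6 of long-tailed macaque, 2 of beaver, 2 of chipmunk, 1 of bear (American black bear), 2 of sugar glider, 1 of tube-nosed bat and 1 of white-footed mouse. The kidney libraries were 6 of baboon, 5 of long-tailed macaque and 1 of bear, the brain libraries 6 of baboon, 2 of beaver and 1 of white-footed mouse, and the cerebellum libraries 6 of long-tailed macaque. Every library is labelled as a male, adult and wild type, and the protocol text calls the animals young adults. No group received a treatment, and nothing in the labels records infection, injury or the state of inflammation of an animal. The baboon, beaver and macaque samples (39 libraries) belong to 1 collection and the other 5 species (9 libraries) to an earlier one, so that a difference between species of different collections and a difference between the collections cannot be told apart. The labels number the libraries within a species but do not say that they came from separate animals, so p-values measure the spread between these samples.

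Total counts per library ranged from 6326129 in white-footed mouse brain to 26801829 in a macaque liver. Levels are given as CPM, a count scaled to a library total of 1000000. CPM are not corrected for gene length, and each is compared below with the same gene in other samples, never with another gene. The 7 genes together took 2.52% to 4.62% of the counts of a baboon liver and 1.65% to 3.02% of a macaque liver, against at most 0.00510% of any baboon or macaque kidney, brain or cerebellum library. ENSMUSG00000029368, an abundant liver gene that the files do not name, took 12.4% to 24.3% of the counts of a baboon liver and 11.5% to 20.1% of a macaque liver, and its level is given beside the comparisons of low levels between organs other than liver. The marker lists for the cell types of these organs are gene symbols, which the files do not pair with their gene IDs, so the organ labels could not be checked against markers. The reads were assigned to mouse gene IDs in every species, by a route not stated in those sources. A level of 0 in a species therefore says only that no read was assigned to that gene ID. Saa4 and Hp belong to families with closely similar copies in several mammals, and their levels are uncertain wherever reads could be split between copies. In the RefSeq gene table of the baboon assembly Panubis1.0, 7 of the 8 symbols were found (all but HP), with SAA2 as the next protein-coding gene to SAA4, ITIH3 to ITIH4 and BPI to LBP.

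**Figure D1:**
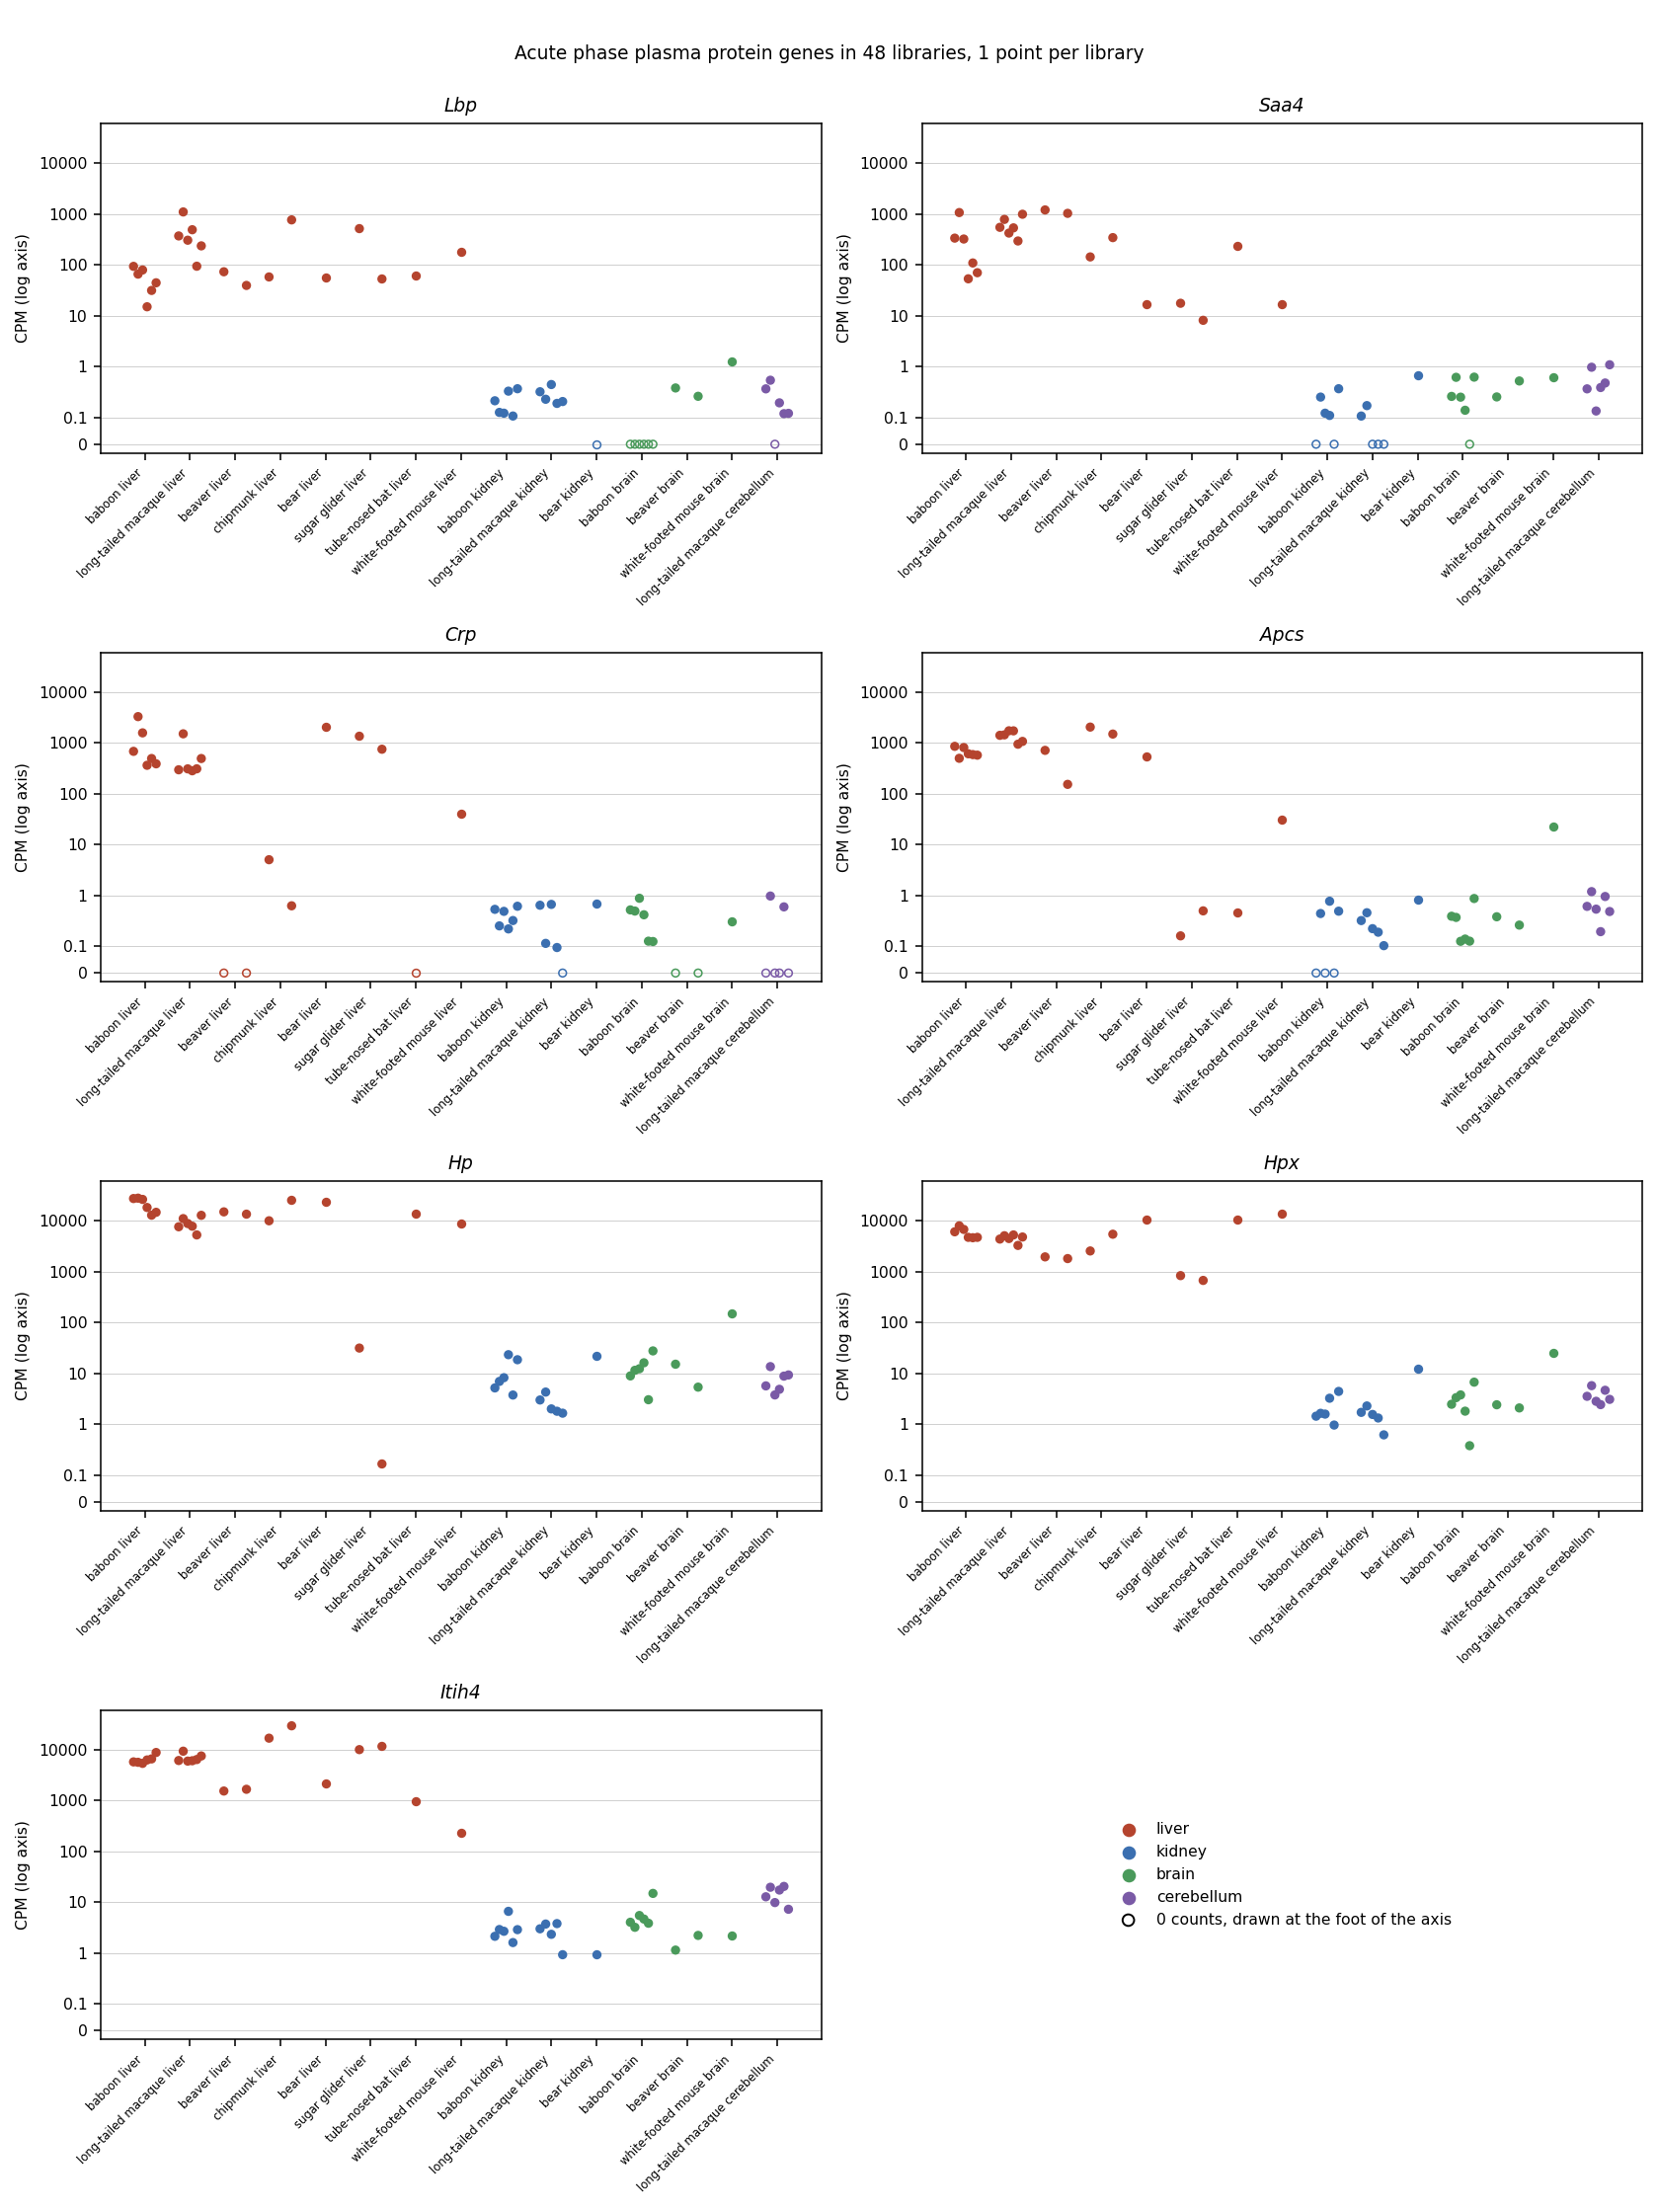
CPM (log axis) of the 7 genes in each of the 48 libraries, 1 point per library, grouped by species and organ with livers on the left; open points at the foot of each panel are libraries with 0 counts. Baboon and macaque livers lie far above kidney, brain and cerebellum for every gene, while the livers of other species span a wide range, with Crp at 0 in the beaver and bat livers, and Hp at 31.5 and 0.167 CPM in the sugar glider livers.

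The organ comparisons ask how far these transcripts are restricted to the liver. In baboon and macaque all 7 genes were higher in liver than in kidney and than in brain or cerebellum, by log2 fold changes of 9.42 to 14.51 where both organs had counts. The lipopolysaccharide-binding protein gene Lbp, whose product hands bacterial lipopolysaccharide to CD14, averaged 55.0 CPM ± 29.9 in baboon liver, against 0.212 CPM in baboon kidney (SD, n = 6). The fold change was 9.42 ± 0.60 on the log2 scale (SE, adjusted p = 7.25e-09, edgeR). In the 6 baboon brains Lbp had 0 counts. Its CPM in liver was at least 858-fold higher, taking 3 read pairs over the group of brains as the floor. Such CPM ratios leave out the scaling factors of the fit, which the log2 fold changes include. Saa4, the constitutively expressed serum amyloid A of high-density lipoprotein, averaged 595 CPM ± 252 in macaque liver (SD, n = 6) and had 5 counts in all in the 5 macaque kidneys. Set against the pooled kidney level, which is those 5 counts over the summed totals of the 5 kidneys, the mean liver CPM was 11235 times as high, with a 95% counting interval of 3508 to 67579.

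The other members showed the same separation. The pentraxin gene Crp averaged 1127 CPM ± 1143 in baboon liver, against 0.406 CPM in kidney and 0.428 CPM in brain (SD of the livers, n = 6). Apcs, the gene of serum amyloid P component, a related pentraxin, averaged 1381 CPM ± 325 in macaque liver, against 0.260 CPM in kidney and 0.664 CPM in cerebellum (SD of the livers, n = 6). Haptoglobin (Hp), which captures free haemoglobin, averaged 21159 CPM ± 6741 in baboon liver, against 11.0 CPM in kidney and 13.3 CPM in brain. Hemopexin (Hpx), which captures free haem, averaged 5802 CPM ± 1361 in baboon liver, against 2.22 CPM in kidney and 3.09 CPM in brain. Itih4, a heavy chain of the inter-alpha-trypsin inhibitor family, averaged 6857 CPM ± 1316 in macaque liver, against 2.76 CPM in kidney and 14.6 CPM in cerebellum. For every member, each baboon or macaque liver lay above each kidney, brain and cerebellum library of its own species. The share of all genes that lie so was not counted.

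Over all genes tested, 31.2% were called higher in liver than in kidney and 40.0% higher in liver than in brain in baboon, where the median log2 fold change of the members was 12.59 and 12.33 (12.11 with Lbp at its lower bound in the second), against -0.06 and -0.05 over all genes. In macaque 30.4% of the genes were called higher in liver than in kidney and 39.8% higher in liver than in cerebellum, with medians of 12.80 and 11.71 over the members and -0.02 and -0.06 over all genes. In beaver 6 of the 7 genes could be tested and all 6 were called higher in liver than in brain, as were 29.3% of all genes tested, with medians of 11.47 over the members and -0.12 over all genes. Crp had 0 counts in all 4 beaver libraries. The members passed the filter on low counts through their livers, and they were chosen as liver products, so these counts carry no support of their own. In bulk RNA, fewer cells of a type and less RNA per cell cannot be told apart.

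The traces outside the liver were not the same in every organ. In macaque 5 of the 7 genes were lower in kidney than in cerebellum. Of all genes tested there, 75.8% were called in either direction and 37.9% were called lower in kidney. No test sets the members against these shares. Itih4 measured 3.01, 3.73, 2.34, 3.80 and 0.932 CPM in the 5 kidneys, against 12.8, 19.7, 9.85, 17.4, 20.5 and 7.27 CPM in the 6 cerebella. No kidney reached the lowest cerebellum, and the log2 fold change was -2.19 ± 0.34 (SE, adjusted p = 1.18e-05, edgeR). Saa4 was likewise lower in kidney, with a log2 fold change of -3.06 ± 0.83 (adjusted p = 0.00272, edgeR), which rested on 5 counts in kidney, against 60 counts in cerebellum. Hp (-1.37 ± 0.36), Apcs (-1.13 ± 0.44) and Hpx (-1.09 ± 0.29) were also lower in kidney, with adjusted p of 0.00243, 0.0280 and 0.00269 in the edgeR fit. The call of Apcs was lost in 5 of the fits that left out 1 library: those without kidney 3, 5 or 6 and those without cerebellum 2 or 5 (adjusted p from 0.0532 to 0.0828). In CPM the kidneys and cerebella did not overlap in Itih4 and Hpx and overlapped in the other 5 genes. After division by the scaling factors of the fit they also overlap in Hpx. The share of all genes that do not overlap was not counted. Lbp and Crp were not called, with log2 fold changes of 0.45 and 0.35. Lbp, Saa4, Crp and Apcs passed the filter on low counts in this fit through the livers it includes, and did not pass it over the kidneys and cerebella alone, so the calls of Saa4 and Apcs rest on levels below that filter. The unnamed abundant liver gene ENSMUSG00000029368 averaged 51.0 CPM in these kidneys and 78.6 CPM in these cerebella, and its part in these differences was not tested.

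In baboon, 2 of the 7 genes were called between kidney and brain, where 77.3% of all genes tested were called. Lbp was higher in kidney, with 2 to 6 counts in each of the 6 kidneys (0.107 to 0.369 CPM) and 0 counts in each of the 6 brains. The call (adjusted p = 0.0246, edgeR) rests on 22 counts in all. The mean kidney CPM was 3.30 times the floor of 3 read pairs over the brains. This ratio leaves out the counting error of the kidneys, so it is no lower bound. Lbp, like Saa4, Crp and Apcs, passed the filter on low counts in this fit through the livers it includes, and did not pass it over the kidneys and brains alone. Itih4 was lower in kidney, with 2.14, 2.91, 2.69, 6.62, 1.61 and 2.89 CPM, against 4.04, 3.22, 5.49, 4.67, 3.87 and 14.9 CPM in brain. Its log2 fold change was -0.93 ± 0.36 (adjusted p = 0.0234, edgeR). The call was lost without kidney 1 (-0.86, adjusted p = 0.0502), without kidney 5 (-0.80, adjusted p = 0.0549) and without brain 6 (-0.45, adjusted p = 0.138). Brain 6 had the highest level of Saa4, Apcs, Hp, Hpx and Itih4 among the baboon brains, and ENSMUSG00000029368 took 0.0144% of its counts, against 0.00176% to 0.0145% over the 6 brains. Saa4, Crp, Apcs, Hp and Hpx were not called, with log2 fold changes from -1.16 to -0.06. The members' median was -0.27, also with Lbp at that 3.30-fold ratio, against 0.02 over all genes. ENSMUSG00000029368 averaged 328 CPM in these kidneys and 89.7 CPM in these brains, and its part in the higher level of Lbp in kidney was not tested.

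The single libraries of bear and white-footed mouse allowed no test. In bear, Lbp had 0 counts in kidney and was at least 139-fold higher in liver, while Saa4 measured 17.3 CPM in liver and 0.688 CPM (10 counts) in kidney, 3.97% of the liver level, and ENSMUSG00000029368 in that kidney was at 0.0781% of its liver level. In white-footed mouse the CPM of Apcs in brain was close to that in liver. It measured 31.1 CPM in liver (95% counting interval 27.0 to 35.8), against 23.1 CPM in brain (18.1 to 29.0), so that the brain level was 74.2% of the liver level. Hp measured 8704 CPM in the same liver and 152 CPM in the same brain, or 1.75% of the liver level, while ENSMUSG00000029368 in that brain was at 0.177% of its liver level. These intervals cover counting error only, and the levels are plain CPM without the scaling factors of a fit. Those factors averaged 0.517 in liver and 1.40 in brain in baboon, and 0.621 and 1.61 in beaver. Plain CPM therefore understates liver over brain in those 2 species. No such factor was computed for bear or for white-footed mouse liver over brain.

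Baboon and macaque livers, 6 of each from the same collection, allow the members to be compared between related species. Lbp and Apcs were lower in baboon liver than in macaque liver, Hp was higher, and Saa4, Crp, Hpx and Itih4 were not called. Beside these 3 of 7 genes, 24.8% of all genes tested were called in either direction, and no test sets the members against that share. The members' median log2 fold change was 0.00, against -0.01 over all genes.

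Lbp measured 93.7, 66.0, 79.5, 15.0, 31.5 and 44.5 CPM in the baboon livers, against 371, 1098, 306, 491, 94.3 and 237 CPM in the macaque livers. The highest baboon liver lay just under the lowest macaque liver, so the groups did not overlap in CPM. The fit also scales each library, by a factor of 0.906 for baboon liver 1, 0.883 for baboon liver 3 and 1.14 for macaque liver 5. Divided by these factors, baboon livers 1 and 3 lie above macaque liver 5, so the groups overlap. The log2 fold change was -2.82 ± 0.58 (SE, adjusted p = 0.00350, edgeR). Apcs measured 853, 497, 808, 609, 587 and 572 CPM in the baboon livers, against 1403, 1434, 1723, 1718, 940 and 1066 CPM in the macaque livers. These groups did not overlap in CPM either, but they overlap after the same scaling, again in baboon livers 1 and 3 and macaque liver 5. The log2 fold change was -0.95 ± 0.21 (adjusted p = 0.00573, edgeR). How many of all genes keep such groups apart was not counted.

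Hp ran the other way, with 27290, 27756, 26227, 18199, 12842 and 14641 CPM in the baboon livers, against 7607, 11007, 8809, 7807, 5261 and 12778 CPM in the macaque livers. The lowest baboon liver lay just above the highest macaque liver in CPM. Divided by the factors of the fit (1.018 for baboon liver 5, 1.003 for macaque liver 6), these 2 livers change places. The log2 fold change was 1.39 ± 0.28 (adjusted p = 0.00358, edgeR). Hp was also higher in baboon kidney than in macaque kidney, by 2.00 ± 0.48 (adjusted p = 0.00797), although single kidneys overlapped between the species. The kidney levels were 5.19, 6.96, 8.25, 23.3, 3.76 and 18.6 CPM in baboon, against 3.01, 4.30, 2.01, 1.81 and 1.66 CPM in macaque. Only Hp, Hpx and Itih4 passed the filter on low counts in kidney, where 30.9% of all genes tested were called. Hpx (0.47) and Itih4 (0.09) were not called there. ENSMUSG00000029368 averaged 328 CPM in the baboon kidneys and 51.0 CPM in the macaque kidneys, and its part in the difference of Hp in kidney was not tested.

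Of the genes that were not called in liver, Hpx measured 4633 to 7939 CPM in baboon and 3272 to 5257 CPM in macaque, a log2 fold change of 0.48 ± 0.20 (adjusted p = 0.0920, edgeR). Itih4 measured 5350 to 8747 CPM in baboon and 5922 to 9281 CPM in macaque, a log2 fold change of 0.00 ± 0.14. Saa4 measured 53.4 to 1068 CPM in baboon and 295 to 990 CPM in macaque, a log2 fold change of -0.71 ± 0.65. Crp measured 362 to 3271 CPM in baboon, against 282 to 1503 CPM in macaque. Its log2 fold change was 1.25 ± 0.63 (adjusted p = 0.164), and it was called higher in baboon, at 1.88 with an adjusted p of 0.0353, when macaque liver 2 was left out.

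**Figure D2:**
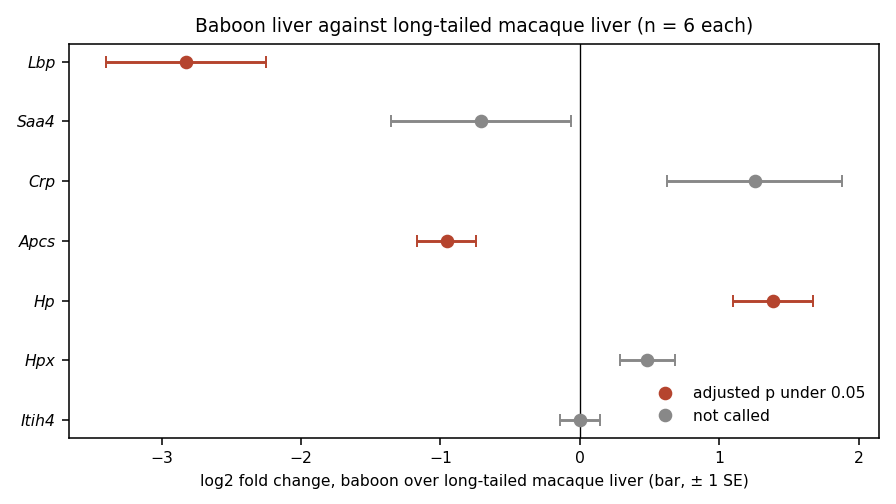
Log2 fold change of each gene in baboon liver over macaque liver (x axis; bars, 1 SE; 6 livers of each species), with genes called at an adjusted p under 0.05 in red and the others in grey. Lbp (-2.82) and Apcs (-0.95) lie left of 0, Hp (1.39) lies right of it, and the bar of Itih4 (0.00) spans 0.

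The replicate livers of a species differed widely in some members. In baboon the coefficient of variation was 118% for Saa4, 101% for Crp and 54.3% for Lbp, and it was 31.9% for Hp, 23.5% for Hpx, 21.7% for Apcs and 19.5% for Itih4. Its median was 16.7% over the 4184 genes with a mean of at least 20 CPM in the same livers. In macaque it was 90.7% for Crp, 81.3% for Lbp, 42.3% for Saa4, 30.1% for Hp, 23.5% for Apcs, 19.2% for Itih4 and 15.6% for Hpx, beside a median of 19.2% over 4476 genes. These values are on plain CPM. Divided by the factors of the primate liver fit, baboon livers had 37.4% for Hp, 28.9% for Hpx, 27.3% for Apcs and 13.9% for Itih4. Macaque livers had 32.4% for Hp, 18.6% for Hpx, 26.1% for Apcs and 19.3% for Itih4. The medians over all genes were not computed on that scale. On plain CPM, single livers carried much of this spread. Without baboon liver 2 the coefficient of variation of Saa4 was 78.2%, and without baboon liver 6 that of Itih4 was 8.28%. Without macaque liver 2 it was 49.5% for Lbp, 25.8% for Crp and 9.97% for Itih4, and without macaque liver 5 that of Hpx was 7.97%.

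In CPM the baboon livers fell into a higher and a lower set for several members. Saa4 measured 336, 1068 and 323 CPM in livers 1 to 3, against 53.4, 109 and 70.3 CPM in livers 4 to 6. Crp measured 680, 3271 and 1569 CPM in livers 1 to 3, against 362, 491 and 387 CPM in livers 4 to 6. Lbp, Hp and Hpx were likewise higher in each of livers 1 to 3 than in each of livers 4 to 6, whereas Itih4 was lower in each of livers 1 to 3 (5350 to 5717 CPM) than in each of livers 4 to 6 (6239 to 8747 CPM). Apcs did not split in this way. The labels give nothing that separates these livers. The libraries' scaling factors in the primate liver fit split too. They were 0.883 to 0.926 in livers 1 to 3 and 1.00 to 1.04 in livers 4 to 6. The CPM above are not corrected for these factors. Divided by them, baboon liver 1 lies above baboon liver 4 in Itih4, so the sets overlap in that gene. How many of all genes split in this way was not counted, so the split cannot be called particular to the members. ENSMUSG00000029368 took 24.3%, 20.7% and 22.2% of the counts of livers 1 to 3, against 22.9%, 14.0% and 12.4% of livers 4 to 6.

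In macaque, liver 2 was among the 3 highest livers for all 7 genes, with the highest level of Lbp, Crp and Itih4. Crp measured 1503 CPM in this liver and 282 to 491 CPM in the other 5. Macaque liver 5 had the lowest level of 5 of the 7 genes, all but Crp and Itih4. In macaque liver 2 ENSMUSG00000029368 took 11.5% of the counts, the smallest share among the 6 macaque livers.

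**Figure D3:**
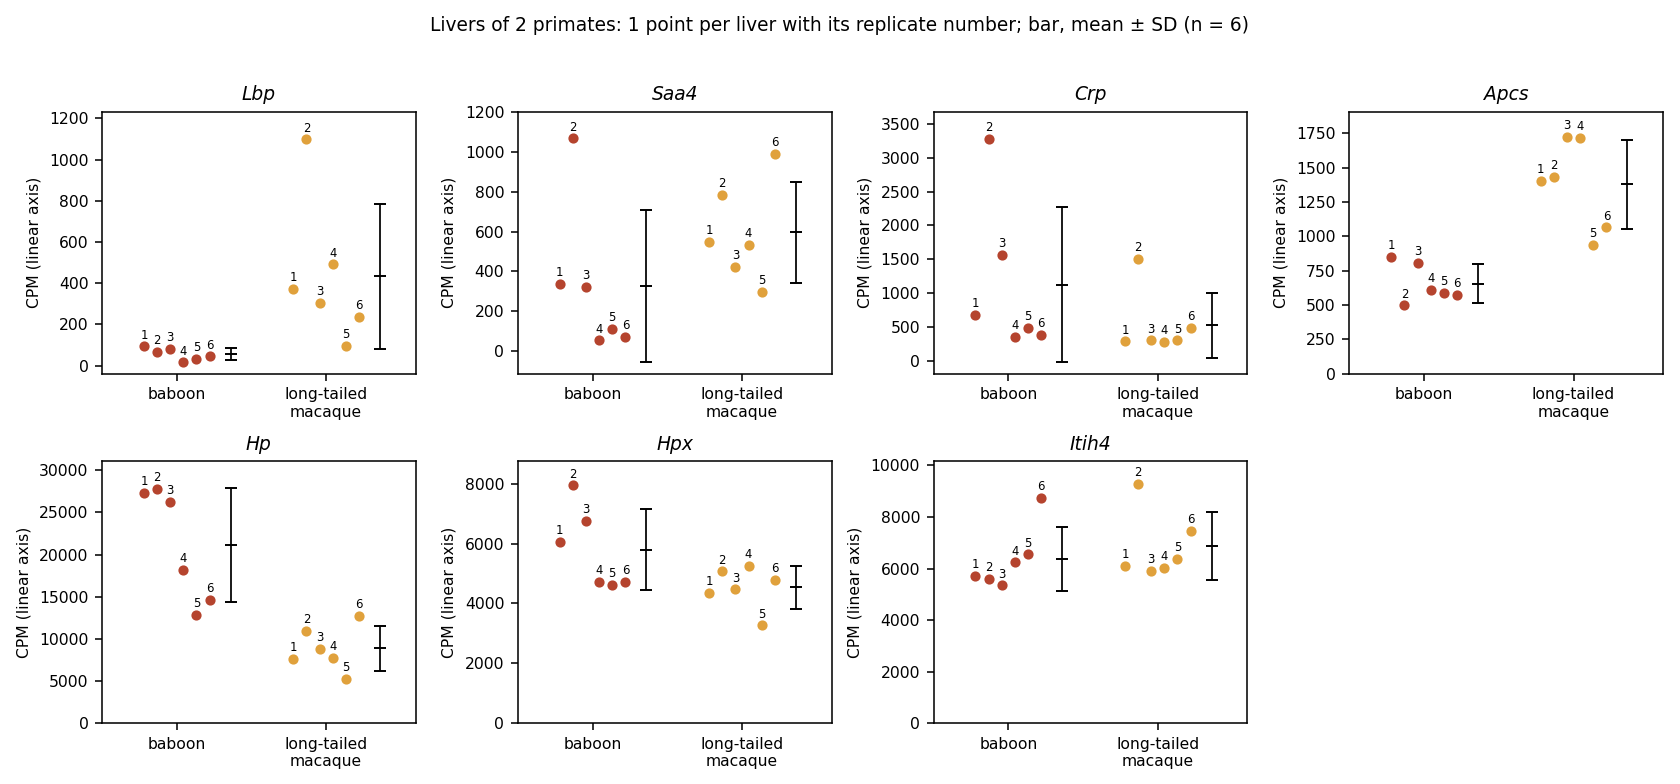
CPM (linear axis) of each gene in the 6 baboon livers and the 6 macaque livers, 1 point per liver with its replicate number beside it; bars give the mean ± SD (n = 6). Baboon livers 1 to 3 lie above livers 4 to 6 for Lbp, Saa4, Crp, Hp and Hpx, and macaque liver 2 stands alone for Lbp at 1098 CPM and for Crp at 1503 CPM.

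Correlations between members were computed over the 6 livers of each species, on log2(TMM-scaled CPM + 1), where TMM scales each library by a trimmed mean of its gene ratios. Among 42 pairs (21 in each species), 0 had an adjusted p under 0.05 (exact permutation test, two-sided), and 6 had an unadjusted p under 0.05. The smallest adjusted p was 0.117. Pearson's r was positive for 35 of the 42 pairs, with a median of 0.61 in baboon and 0.64 in macaque. Saa4 and Crp had r = 0.95 and Spearman's rho = 0.94 in baboon (exact permutation p = 0.00417 for r and 0.0167 for rho, adjusted p = 0.117 for r and 0.308 for rho), and r was 0.85 without the 2 livers farthest from the median of Saa4. In baboon the correlations among Lbp, Saa4, Crp, Hp and Hpx join the higher livers 1 to 3 with the lower livers 4 to 6, and 3 livers a set are too few to test a relation within a set. Crp and Itih4 had r = 0.96 and rho = 0.77 in macaque (exact permutation p = 0.00833 for r and 0.103 for rho, adjusted p = 0.117 for r and 0.308 for rho). Without the 2 livers farthest from the median of Crp, that r was 0.51. Leaving them out narrows the range of Crp, and too few livers remain to say whether the relation rests on them. Over both species, 8 of the 42 coefficients changed sign when 2 livers were left out in this way.

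**Figure D4:**
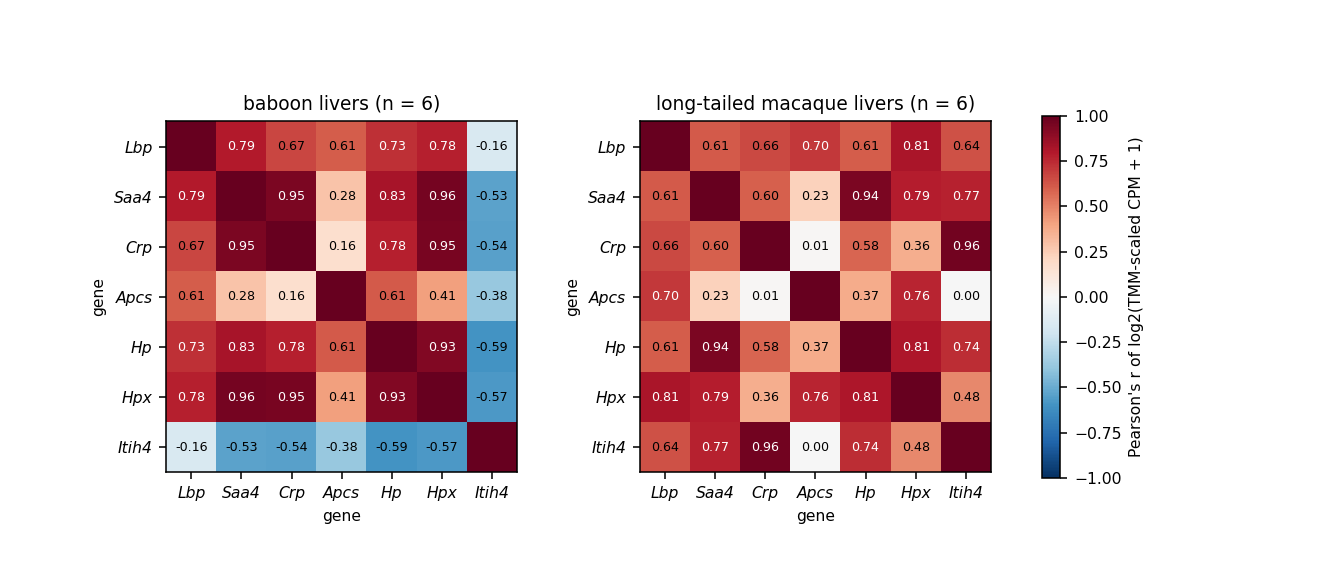
Pearson's r of log2(TMM-scaled CPM + 1) between each pair of genes over 6 baboon livers (left) and 6 macaque livers (right), red for positive and blue for negative values. Itih4 is negative with every other gene in baboon (-0.16 to -0.59), and no pair passes an adjusted p of 0.05 in either species.

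The genes whose pattern over the 12 primate livers was most like the members' mean were found by correlating each of 3876 genes, centred within its species, with the mean of the scaled members. The highest Pearson's r was 0.88 for ENSMUSG00000045427 and 0.87 for ENSMUSG00000062270, and the fifth highest was 0.86. The files pair none of these IDs with a name. The value describes 12 livers that share their libraries with the members, and the members' own mean was highest in baboon liver 2 and macaque liver 2 and lowest in baboon liver 4 and macaque liver 5. The members' own r with that mean, to which each contributes, ranged from 0.28 for Itih4 and 0.56 for Apcs to 0.92 for Hpx. The mean therefore does not describe every member equally.

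Across the livers of 8 species, each member had its own order of levels. The bear, bat and white-footed mouse livers are single libraries without a measured spread. Lbp was highest in macaque (433 CPM ± 352, SD, n = 6), then chipmunk (58.0 and 767 CPM), sugar glider (516 and 53.0 CPM) and white-footed mouse (180 CPM). It was lowest in tube-nosed bat (62.7 CPM), bear (57.6 CPM), beaver (73.4 and 39.5 CPM) and baboon (55.0 CPM ± 29.9, n = 6). Macaque, chipmunk and sugar glider livers overlapped, and so did those of bear, beaver and baboon.

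Saa4 was highest in beaver, at 1203 and 1031 CPM, above every other liver but 1 baboon liver. Macaque (595 CPM ± 252), baboon (327 CPM ± 384) and chipmunk (144 and 344 CPM) livers overlapped in that order, and tube-nosed bat measured 235 CPM. Bear at 17.3 CPM, white-footed mouse at 16.7 CPM and sugar glider at 17.6 and 8.16 CPM were the 3 species with low levels.

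Both pentraxin genes were high in some species and at or near 0 in others. Crp was highest in bear (2039 CPM), followed by baboon (1127 CPM ± 1143), sugar glider (1348 and 748 CPM) and macaque (531 CPM ± 482), and neighbours in that order overlapped. White-footed mouse measured 40.4 CPM, chipmunk 5.05 and 0.628 CPM, and beaver and tube-nosed bat 0 counts. With 3 read pairs as the floor, the 2 beaver livers together allow a level of up to 0.135 CPM and the bat liver one of up to 0.694 CPM. Apcs was highest in chipmunk (2038 and 1486 CPM) and macaque (1381 CPM ± 325), which overlapped, then baboon (654 CPM ± 142), bear (533 CPM) and beaver (711 and 153 CPM). White-footed mouse measured 31.1 CPM, tube-nosed bat 0.463 CPM (4 counts) and sugar glider a mean of 0.330 CPM (2 and 6 counts).

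Hp and Hpx, whose products bind haemoglobin and haem, had counts in every liver. Hp measured between 5261 CPM, in 1 macaque liver, and 27756 CPM, in 1 baboon liver, in every species but the sugar glider. The sugar glider livers measured 31.5 and 0.167 CPM, the second of these on 2 counts. Hpx measured 13817 CPM in white-footed mouse, 10736 CPM in bear and 10339 CPM in tube-nosed bat. It measured 5802 CPM ± 1361 in baboon and 4536 CPM ± 707 in macaque, which overlapped, 2547 and 5434 CPM in chipmunk, 1949 and 1804 CPM in beaver and 835 and 672 CPM in sugar glider. Itih4 was highest in chipmunk, at 16718 and 29267 CPM, followed by sugar glider (9960 and 11532 CPM), macaque (6857 CPM ± 1316) and baboon (6369 CPM ± 1244). Bear (2163 CPM), beaver (1530 and 1656 CPM) and tube-nosed bat (966 CPM) were lower, and white-footed mouse was lowest at 235 CPM.

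**Figure D5:**
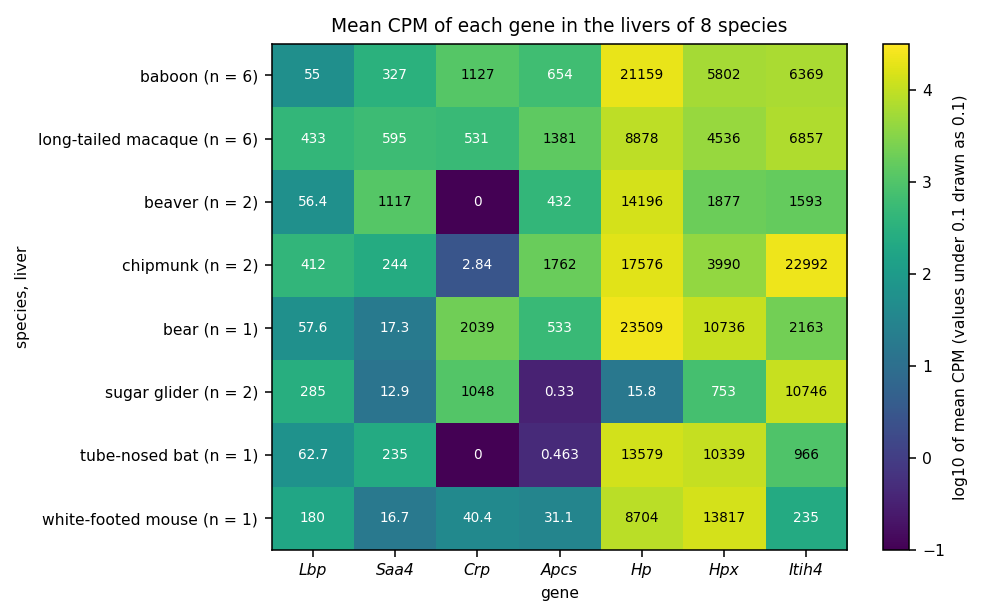
Mean CPM of each gene (columns) in the livers of each species (rows, with the number of livers), coloured by the log10 of the mean with values under 0.1 drawn as 0.1. The darkest cells are Crp in beaver and tube-nosed bat (0) and in chipmunk (2.84), and Apcs in sugar glider (0.330) and tube-nosed bat (0.463); Hp in sugar glider (15.8) is the only dark cell of its column.

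Each species was also set against the mean of the other 7 in 1 fit of all 21 livers, with equal weight for every species on the log scale. A species with 1 liver borrows the spread of the others in this fit. Crp could not be fitted usefully, since 2 species had 0 counts, and is left to its levels. The contrasts of Apcs and Hp lean on the species with almost no counts, since a near-0 sugar glider or bat lowers the mean against which the others are set. All 8 contrasts share the same livers. The values within a collection, where a species is set against only the species collected with it, are given beside the calls that they change. Of all 14371 genes tested, those called within a collection were 6044 in baboon, 5665 in macaque and 7450 in beaver. They were 6472 in chipmunk, 5027 in bear, 7293 in sugar glider, 6138 in tube-nosed bat and 7562 in white-footed mouse.

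Of all genes, 58.2% were called in either direction in baboon liver and 39.8% were called higher, with a median log2 fold change of 0.32. In baboon liver 4 of the 6 members other than Crp were higher than in the other 7 species and 2 were not called. The 4 were Saa4 (1.75 ± 0.52, SE), Apcs (3.55 ± 0.29), Hp (2.14 ± 0.49) and Itih4 (1.26 ± 0.15), with adjusted p of at most 0.00828 (edgeR). Within its collection only Itih4 of these was still called (1.07, adjusted p = 0.000170), and Hpx, with 0.45 in the whole fit, was called higher (1.13, adjusted p = 0.000837). Hp had 1.06 there (adjusted p = 0.139), Saa4 -1.16 (adjusted p = 0.128) and Apcs -0.09 (adjusted p = 0.839). The call of Saa4 was also lost without baboon liver 2 (0.90, adjusted p = 0.0897).

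Macaque liver likewise had 4 of 6 genes higher, where the median log2 fold change over all genes was 0.30. Of all genes, 37.9% were called higher there and 54.3% in either direction. The 4 members were Lbp (1.88 ± 0.58), Saa4 (2.58 ± 0.53), Apcs (4.64 ± 0.31) and Itih4 (1.26 ± 0.15), with adjusted p of at most 0.0112 (edgeR). Within its collection Lbp (2.90), Apcs (1.34) and Itih4 (1.07) were called, and Saa4 was not (-0.07, adjusted p = 0.960). Without macaque liver 2, Lbp was no longer called against the other 7 species (1.37, adjusted p = 0.0529). In beaver liver Saa4 (3.57 ± 0.66) and Apcs (2.67 ± 0.36) were higher and Hpx (-1.59 ± 0.34) and Itih4 (-1.18 ± 0.26) lower, beside 44.4% of all genes called. Against baboon and macaque alone, Apcs was called lower in beaver (-1.25, adjusted p = 0.0214), and Saa4 was not called (1.23, adjusted p = 0.159).

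In chipmunk liver Apcs (4.80 ± 0.35) and Itih4 (3.07 ± 0.20) were higher, beside 42.1% of all genes called in either direction and 28% called higher. Within its collection Saa4 (2.74) and Hp (2.53) were called higher too, both with an adjusted p of 0.0126 (edgeR). In bear liver Apcs (3.55 ± 0.41), Hp (2.64 ± 0.77) and Hpx (1.80 ± 0.34) were higher, beside 30.2% of all genes called in either direction and 20.4% called higher. The same 3 members were called higher within the bear's collection. In sugar glider liver Saa4 (-4.21 ± 1.10), Apcs (-9.53 ± 0.78), Hp (-10.36 ± 1.39) and Hpx (-3.52 ± 0.39) were lower and Itih4 (1.55 ± 0.21) higher, beside 50.8% of all genes called. These 5 calls were also made within its collection. Without sugar glider liver 2 the call of Saa4 was lost (-3.76, adjusted p = 0.0583). Hp, with 391 counts in sugar glider liver 1 and 2 counts in liver 2, was -16.82 without liver 1 (adjusted p = 1.38e-07, edgeR) and -9.36 without liver 2 (adjusted p = 2.46e-06, edgeR), so the size of its fold change depends on which liver is used.

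In tube-nosed bat liver Apcs (-9.27 ± 1.08) and Itih4 (-2.72 ± 0.40) were lower, beside 43.4% of all genes called in either direction and 17.3% called lower. Apcs and Itih4 were also called lower within the bat's collection. In white-footed mouse liver Hpx was higher (2.94 ± 0.30) and Itih4 lower (-3.09 ± 0.42), beside 53.9% of all genes called and a median log2 fold change of -0.65 over all genes. Within its collection Hp (2.76, adjusted p = 0.0135) and Apcs (1.92, adjusted p = 0.00691) were called higher as well. Lbp was called in macaque alone among the 8 contrasts of the whole fit. Without chipmunk liver 2 its contrast in chipmunk was -1.32, against 1.68 with both livers, and without sugar glider liver 1 that in sugar glider was -1.67, against 0.71 with both. The 2 chipmunk livers differed 13.2-fold in Lbp and the 2 sugar glider livers 9.75-fold.

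These replicate pairs can be set against the other genes of the same livers. Of the genes at 1 CPM or more, 8.57% differed by more than 2-fold between the chipmunk livers, 9.44% between the sugar glider livers and 9.56% between the beaver livers. In chipmunk, Lbp, Saa4, Crp, Hp and Hpx lay beyond 2-fold, with Lbp, Saa4, Hp and Hpx higher in liver 2 and Crp higher in liver 1. Itih4 differed 1.75-fold and Apcs 1.37-fold. In sugar glider, Lbp, Saa4, Apcs and Hp lay beyond 2-fold, with the 3.10-fold difference of Apcs resting on 2 and 6 counts. Hp differed 189-fold there, on 391 and 2 counts. In beaver Apcs differed 4.65-fold and was the only member with counts beyond 2-fold.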

How the data were processed

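RNA-seq counts were taken as the authors deposited them: 1 table of raw read counts per gene, with no normalization, 16816 genes and 48 libraries. Per the submitters' processing notes, STAR and featureCounts were used; which versions, builds, annotation and strand setting, and how reads of 8 species came to mouse gene IDs, is not given in the sources used. Counts from 1 to 20 were even in 94.3% to 99.4% of cases per library, so 2 counts were taken as 1 read pair for floors (3 read pairs, 6 counts) and exact 95% intervals (Clopper-Pearson for levels, Poisson for ratios). Intervals and floors cover counting error only.

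The members and lists were chosen with earlier results of these data known. Gene names of the members come from the rule that chose them. The 8 members are described in every comparison, and so are the genes with the most similar pattern; further gene lists and cell type markers are gene symbols, could not be matched to the IDs, and were not used. With Orm1 absent, 42 correlations were computed, not 56 as planned.

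Libraries were grouped by species and organ. The main test was edgeR 4.0.16 in R 4.3.3 (TMM factors, filterByExpr defaults, quasi-likelihood F test, two-sided, Benjamini-Hochberg adjustment over all genes tested, called at an adjusted p under 0.05), which was tested on simulated data. A standard error (SE) is the log2 fold change divided by the square root of F. Organs were fitted within baboon (18 libraries), macaque (17) and beaver (4), primate livers (12) and kidneys (11) between species, and all 21 livers in 1 fit. Permutation tests used all 720 orders of 6 livers (scipy 1.17.1). Alternatives were RLE and upper-quartile factors, no filter, DESeq2 1.42.0, a replicate block, species of the same collection only, and leaving out each library.

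Same-numbered samples deviated together in baboon liver and kidney (r from 0.150 to 0.420 over 6 pairs), macaque liver and kidney (0.272 to 0.407 over 5 pairs) and macaque kidney and cerebellum (0.161 to 0.214 over 5 pairs), so the numbers pair these samples. They were not taken to pair baboon liver and brain (0.057 to 0.126), baboon kidney and brain (0.054 to 0.149), macaque liver and cerebellum (0.070 to 0.141) or the 2 beaver pairs. The rule asked for a lowest r above 0.1 and for more pairs than beaver has. Samples still matched best with their own number in 6 of 6 pairs of baboon kidney and brain. This held for 5 of 6 in macaque liver and cerebellum and 4 of 6 in baboon liver and brain. The choice therefore does not mean that these samples came from different animals.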

Additional observations from a re-analysis of the deposited data

Results flagged for a closer look

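In 6 of 41 groups of 5 or 6 libraries, counted per gene, the highest library stood far from the others by Dixon's test. For normally distributed values chance flags about 1 in 20 such groups. The test was run here on untransformed CPM, in some groups on few counts, so its chance rate in these data is not known. Saa4 measured 1068 CPM in baboon liver 2 and 53.4 to 336 CPM in the other 5 baboon livers. Crp measured 1503 CPM in macaque liver 2 and 282 to 491 CPM in the other 5 macaque livers. Itih4 measured 8747 CPM in baboon liver 6 and 5350 to 6548 CPM in the others, 6.62 CPM in baboon kidney 4 and 1.61 to 2.91 CPM in the others, and 14.9 CPM in baboon brain 6 and 3.22 to 5.49 CPM in the others. Apcs measured 0.873 CPM (14 counts) in baboon brain 6 and 0.126 to 0.391 CPM (2 to 6 counts) in the others. The 3 flags of Itih4 fall on differently numbered baboon samples, except that liver 6 and brain 6 share a number.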

How the results depend on the processing

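Of the fold changes of members under other factors, filters, tests, blocks or species sets, 508 kept their direction and call, 7 gained a call, 2 lost one and 13 changed sign. Of these 13, 8 were called on neither side, 3 lost a call with the change, 1 gained one and 1, Apcs in beaver, was called in both directions. With each library left out in turn, 1552 kept both, 30 gained a call, 11 lost one and 28 changed sign, all of them called on neither side. The replicate block changed no call of a member, and baboon liver over kidney had 4347 genes higher (4332 without it). Between baboon and macaque the block joins samples of different species that share only a number, so it is no check of those calls. With it 2272 genes were called in baboon over macaque liver (2961 without it) and 2987 in kidney (4046 without it). The block turned 2 uncalled values, Crp in baboon kidney over brain (0.11) and Itih4 in baboon over macaque kidney (-0.14). Upper-quartile factors turned Crp in baboon kidney over brain (0.034), and no filter turned Itih4 in baboon over macaque liver (-0.00021).

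With species of the same collection only, the members called were 2 in baboon, 4 in chipmunk and 4 in white-footed mouse, against 4, 2 and 2 in the whole fit. Over all 14371 genes tested, 6044, 6472 and 7562 were called with this setting, against 8369, 6057 and 7751 in the whole fit. The contrasts that turned were Apcs (-0.091) and Saa4 (-1.16) in baboon, Hpx (0.42), Hp (-1.01) and Saa4 (-0.067) in macaque, Apcs (-1.25) and Hp (-0.054) in beaver, Itih4 (0.12) in bear and Apcs (1.92) in white-footed mouse. This setting compares with fewer species.

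With each library left out, members called ranged from 1 to 2 in baboon kidney over brain and from 2 to 4 in chipmunk, where 4 came without sugar glider liver 1. In beaver 2406 to 3859 genes were higher in liver (3895 in the main fit), with the lowest counts when a brain was left out; the lone sample is then assumed to vary like the liver pair. Log2 fold changes that turned ranged as follows. In baboon kidney over brain, Apcs ranged from -0.86 to 0.27, Hp from -0.58 to 0.071 and Crp from -0.26 to 0.30. In macaque kidney over cerebellum, Crp ranged from -0.15 to 1.48. In baboon over macaque, Itih4 ranged from -0.094 to 0.096 in liver and from -0.23 to 0.24 in kidney. Against the other 7 species, Hpx ranged from -0.17 to 0.32 in macaque and from -1.25 to 0.031 in chipmunk, Lbp from -1.32 to 2.60 in chipmunk and from -1.67 to 1.58 in sugar glider, Saa4 from -0.13 to 0.41 in tube-nosed bat and Apcs from -1.77 to 0.12 in white-footed mouse. The cause of these changes was not tested. Without sugar glider liver 1, Hp was called higher in macaque (1.49), beaver (2.21), chipmunk (2.44), tube-nosed bat (1.43) and white-footed mouse (2.65). Hpx in baboon (adjusted p = 0.0584, edgeR) was called higher in 8 such fits (adjusted p from 0.00110 to 0.0488), and Lbp in baboon (-1.36) was called lower in 4 of them and with DESeq2 (-1.41, adjusted p = 0.0385). The median over all genes moved by -0.12 with upper-quartile factors in liver over kidney of baboon and of macaque, and by 0.27 with RLE factors and 0.48 with DESeq2 in white-footed mouse. On plain CPM, 0 of the 42 correlations had an adjusted p under 0.05 (8 unadjusted). Depth limits the levels under about 1 CPM outside the liver, which rest on a few read pairs.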
